A study of Homo sapiens with 8 samples.

Results

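The late response to BET inhibition was measured in DOHH2 cells on 4 of the 8 bead arrays of a time course. These were 1 array each of cells treated with BAY 1238097 for 12 h, cells treated with BAY 1238097 for 24 h, and cells given DMSO, the vehicle, for 12 h and for 24 h. The members were chosen by treatment and time label alone, and each treated array was paired with the vehicle array of its time. The remaining 4 arrays hold the same treatments at 4 and 8 h. DOHH2 is an established human B-cell line from a follicular lymphoma that had transformed to a more aggressive form, so all groups are 1 line. The labels give neither the dose nor whether the arrays came from separate cultures. Errors and p-values therefore measure the spread between arrays and pairs, which may be technical. In the fit to the whole time course, that spread includes the change in treatment effect from 4 to 8 h. The times 12 and 24 h stand in for replicates of a late state.

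BAY 1238097 is an inhibitor of BET bromodomain proteins. These proteins bind acetylated lysines on histone tails through paired bromodomains and recruit the elongation kinase P-TEFb and other cofactors to promoters and enhancers. In B-cell lymphomas, BET inhibitors are known for lowering transcription of genes that depend on large enhancers, MYC and B-cell lineage genes among them, while HEXIM1 and histone genes often rise.

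Values are deposited log2 values, so a difference of 1 is 2-fold. A gene was tested where its probe was above background on at least 2 of the 4 late arrays, which left 10499 genes. In bulk RNA, fewer cells of a type and less RNA per cell cannot be told apart. The late difference is the mean of the paired differences at 12 and 24 h, given with its standard error. This error and the p-value come from the fit to the whole time course. They hold the spread between 12 and 24 h and also the change in effect between the earlier times. The words "rose" or "fell" are used for a limma adjusted p under 0.05. On that measure 2462 genes (23.4%) were called, 1259 higher (12.0%) and 1203 lower (11.5%). Counts within gene lists below stand beside these shares of all genes. Scaling by the array median in place of quantile normalization shifted the median late difference of all genes from 0.01 to -0.11, and split the calls as 590 higher and 2029 lower. Without the 12 h pair 250 genes were called, and without the 24 h pair 39. Leaving out the time pairing gave 1094.

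The treated arrays were dimmer before normalization. The mean probe intensity was 419 at 12 h and 407 at 24 h in DMSO, against 366 and 334 with BAY 1238097. Its part in the results was not tested beyond the median scaling. Of the B-cell markers, CD74 (12.35 and 12.10 in DMSO, 12.30 and 11.66 with BAY 1238097), CD79A, CD79B and MME, the CD10 antigen of germinal centre cells (8.13 and 8.78, against 7.34 and 8.20), were above background on all late arrays. MS4A1 (6.66 to 6.95) and CD22 (6.73 to 6.93) were at its edge, and PAX5 and BCL6 were not above it. The summed log2 values of the 8 B-cell markers on the array were 68.9 to 69.1 in DMSO and 66.6 to 66.8 with BAY 1238097. The share of all genes with treated values beyond both vehicle values was not counted. The sum includes PAX5 and BCL6, and of the 6 markers tested only CD79A fell and 0 rose. The part of the lower sum in other results was not tested. Of 15 markers of T cells, monocytes, epithelium and fibroblasts on the array, 1 passed the background filter, and their summed log2 values overlapped between DMSO (99.5 to 99.5) and BAY 1238097 (99.1 to 99.6).

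Across the 10499 genes, the paired differences at 12 and 24 h correlated with Pearson's r = 0.843, and 78.3% of genes had the same sign, as a description over genes of arrays normalized together. The SD of the differences was 0.37 at 12 h and 0.41 at 24 h. A difference of at least 1 was reached by 69 genes upward and 121 downward at 12 h, and by 111 and 174 at 24 h. The same r was 0.880 between 8 and 12 h and 0.561 between 4 and 12 h. In 129 genes (1.23%) the difference was at least 1 in size and of the same sign at both late times. They are called the shared response here, with 47 genes higher (0.448%) and 82 lower (0.781%). Membership rests on the same pairs as the late test, so it was described rather than tested. At the edge of the threshold, JUN (1.01 at 12 h) was just inside and N4BP2L2 (0.999) just outside, and CYBB (-1.01 at 24 h) was just inside and IFIT1 (-0.9997 at 12 h) just outside.

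**Figure D1:**
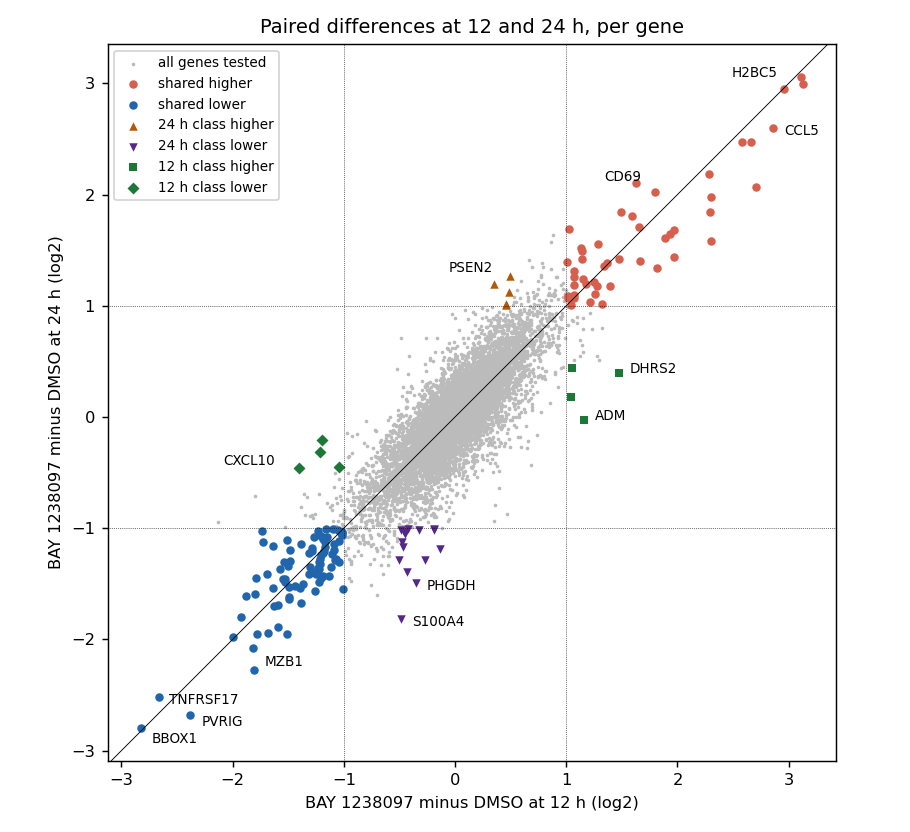
Each point is 1 of the 10499 genes tested, with the BAY 1238097 minus DMSO log2 difference at 12 h on the x axis and at 24 h on the y axis. Red and blue points are the 47 and 82 genes past 1 at both times, triangles the 5 and 15 genes past 1 at 24 h and under 0.5 at 12 h, and green symbols the 4 and 4 genes of the mirrored 12 h class; the solid line marks equal differences.

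The shared response was largely in place by 8 h. Over the times 4, 8, 12 and 24 h, the median difference of the 47 higher genes was 1.1, 1.53, 1.39 and 1.44, and 24 of them were past 1 at 4 h and 36 at 8 h. The median of the 82 lower genes was -0.47, -1.25, -1.30 and -1.36, with 13 past -1 at 4 h and 66 at 8 h. The earlier times did not enter the rule for these genes. The late minus early effect, tested over all genes, gave 0 calls (0.0%) in limma, with 1010 genes (9.62%) at an unadjusted p under 0.05, and 12 calls without the 8 h pair. No gene is therefore named as particular to the late times by that test.

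Histone genes led the shared rises. The replication-dependent histone genes encode the core and linker histones that package new DNA, in clusters that lack introns. Several H2B promoters carry the octamer, the site of the factor OCT1. Below, 300 bases around 2 start sites (250 before, 50 after, RefSeq, GRCh38.p14) show the gene with the largest rise, H2BC5 (chr6:26157871-26158170, plus strand), whose window held no octamer ATTTGCAT on either strand, and H2BC21 (chr1:149886633-149886932, minus strand), where 1 begins 46 bases before the start and is in capitals.
H2BC5: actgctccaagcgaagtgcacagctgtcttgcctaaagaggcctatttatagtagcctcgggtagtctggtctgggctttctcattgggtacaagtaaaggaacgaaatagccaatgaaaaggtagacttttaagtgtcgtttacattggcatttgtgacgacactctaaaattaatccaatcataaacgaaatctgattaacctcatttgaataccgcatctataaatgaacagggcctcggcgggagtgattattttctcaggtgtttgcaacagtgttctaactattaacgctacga
H2BC21: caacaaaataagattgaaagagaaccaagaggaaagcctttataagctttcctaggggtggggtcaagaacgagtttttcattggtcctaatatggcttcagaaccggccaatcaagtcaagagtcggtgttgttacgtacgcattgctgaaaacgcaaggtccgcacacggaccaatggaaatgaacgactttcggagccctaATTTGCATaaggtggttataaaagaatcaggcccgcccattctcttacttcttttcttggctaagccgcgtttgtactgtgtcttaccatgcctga
The octamer was found in 10 of 11 tested H2B genes with a promoter in the table (90.9%), in 17 of 38 replication-dependent histone genes (44.7%), in 1.5% of 8452 tested genes and in 1.80% of all 27305 promoters of the table, both strands searched. H2BC5 was the 1 H2B gene without it. A match is a description of the sequence and shows no binding.

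H2BC5 read 7.56 and 8.21 in DMSO at 12 and 24 h and 10.66 and 11.27 with BAY 1238097. It rose by 3.08 ± 0.09, or 8.48-fold, with a limma adjusted p of 0.000221. H2AC18, which encodes an H2A protein, read 8.87 and 8.95 in DMSO and 12.00 and 11.94 with BAY 1238097, a rise of 3.06 ± 0.12 (adjusted p = 0.000628). In both genes the treated arrays lay far above the vehicle arrays, with differences at 12 and 24 h of 3.13 and 2.99 for H2AC18. H2BC21 was near background in DMSO (6.96 and 7.0) and read 9.92 and 9.95 with BAY 1238097 (late difference 2.95 ± 0.21, adjusted p = 0.00307). The linker histone gene H1-2 read 9.17 and 9.15 against 11.45 and 11.34, with differences of 0.86, 1.68, 2.28 and 2.19 over the 4 times. Its late minus early difference of 0.96 ± 0.26 did not pass (adjusted p = 0.491).

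Of 40 replication-dependent histone genes tested, 25 rose and 0 fell, and 16 were past 1 at both late times. Their median difference was 0.72 at 12 h and 0.53 at 24 h, beside 0.01 and 0.01 over all genes. All 8 H2A genes rose, as did 8 of 11 H2B, 4 of 10 H3, 4 of 8 H4 and 1 of 3 H1 genes. The background filter could keep a gene seen on the treated arrays only. Among the 25 histone genes with a probe above background on all 4 late arrays, 17 rose and 0 fell. The brightest member, H4C3, read 13.63 and 13.55 in DMSO against 13.78 and 13.50 with BAY 1238097 and did not pass (adjusted p = 0.764). Among 10 genes of replacement histones, which are made outside S phase, 3 rose, including H2AJ (2.07 ± 0.12) and H1-10 (1.68 ± 0.09). H3-3B, the third, rose by 0.66 ± 0.12 but not under median scaling. Histone genes share long stretches of sequence, so their probes may read near-identical copies, and how far was not tested.

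**Figure D2:**
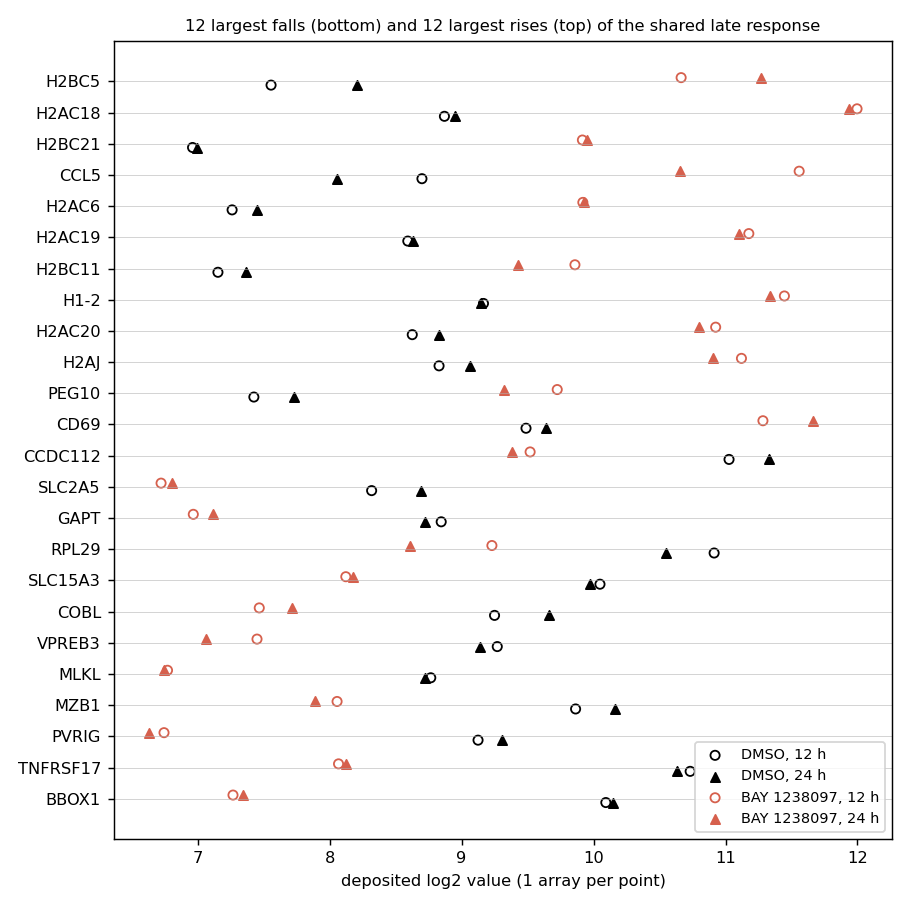
Deposited log2 values of the 12 genes with the largest rises and the 12 with the largest falls of the shared response; open circles are 12 h arrays, filled triangles 24 h arrays, black DMSO and red BAY 1238097. In each of the 24 genes both treated arrays lie on the same side of both vehicle arrays, as the rule for these genes required of each pair.

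Outside the histones, CCL5 had the largest shared rise. This chemokine, which attracts T cells and monocytes, read 8.70 and 8.06 in DMSO and 11.56 and 10.65 with BAY 1238097, a rise of 2.73 ± 0.23 (adjusted p = 0.00461). Both arms were lower at 24 h than at 12 h, and the differences were 2.86 and 2.60. CD69, a surface marker of lymphocyte activation, read 9.49 and 9.64 against 11.28 and 11.66 and rose by 1.91 ± 0.14. PEG10, an imprinted gene of retroviral descent, rose by 1.94 ± 0.19, with a larger difference at 12 h (2.30) than at 24 h (1.59). Further shared rises were in ZFP36 (1.67 ± 0.12), which promotes decay of cytokine mRNAs, in SAT1 (1.53 ± 0.12), which acetylates polyamines for breakdown, in MT2A (1.37 ± 0.12), a metal-binding protein, and in NFKBIA (1.32 ± 0.12), the inhibitor that holds NF-kappaB in the cytoplasm.

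The shared falls were led by BBOX1, the last enzyme of carnitine synthesis. It read 10.09 and 10.14 in DMSO and 7.27 and 7.35 with BAY 1238097, a fall of 7.02-fold (late difference -2.81 ± 0.36, adjusted p = 0.00906). TNFRSF17, the BCMA receptor of plasma cells, read 10.73 and 10.63 against 8.07 and 8.12 and fell by 2.59 ± 0.15 on the log2 scale (adjusted p = 0.00174). TNFRSF17 was already at -2.16 at 4 h, while BBOX1 was at -0.82 there and at -2.59 by 8 h. BBOX1 then differed by -2.83 at 12 h and -2.80 at 24 h, so its error of 0.36 is not the spread of the late pairs alone. MZB1, a chaperone of antibody assembly in the endoplasmic reticulum, read 9.86 and 10.16 against 8.06 and 7.89. Its differences were -0.16, -1.06, -1.81 and -2.27 at 4, 8, 12 and 24 h, and the late minus early difference of -1.43 ± 0.31 did not pass (adjusted p = 0.491).

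Both treated values were not above background for PVRIG, an inhibitory receptor gene (6.75 and 6.63, against 9.12 and 9.31 in DMSO), and for MLKL, the executor of necroptosis (6.77 and 6.74, against 8.77 and 8.72). PVRIG was at least 5.39-fold lower and MLKL at least 3.88-fold lower, computed against the dimmest level called above background, with adjusted p of 0.00713 and 0.00461. The same held for ACKR4 (at least 2.64-fold lower), an atypical chemokine receptor, and FCMR (at least 2.32-fold lower), the Fc receptor for IgM. These bounds are for the probe used, and late differences ran from -1.59 to -0.51 over the probes of ACKR4. VPREB3, which associates with immunoglobulin chains in B cells, fell by 1.95 ± 0.29, SLC15A3, a lysosomal peptide transporter, by 1.86 ± 0.32, and SLC2A5, a fructose transporter, by 1.74 ± 0.19, with 1 of the 2 treated arrays above background.

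MYC, the growth regulator best known among BET targets, was lower at both late times. It read 11.63 and 11.72 in DMSO and 10.82 and 11.15 with BAY 1238097. Over 4, 8, 12 and 24 h its differences were -1.97, -1.16, -0.82 and -0.57. The late difference of -0.70 ± 0.19 passed with an adjusted p of 0.0434, but not without a filter on dim probes (0.0956), and the late minus early difference of 0.87 ± 0.27 did not pass (adjusted p = 0.491). The MXD proteins pair with MAX and repress E-box genes, opposing MYC. MXD4 read 8.23 and 8.19 in DMSO and 9.12 and 9.83 with BAY 1238097 (1.26 ± 0.17), and MXD1 rose by 0.77 ± 0.16. In the MYC and MAX network 3 of 10 genes rose and 1, MYC, fell.

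Of 22 genes of the BET and P-TEFb machinery, AFF4 (0.62 ± 0.13) and AFF1 (0.55 ± 0.10), scaffolds of the super elongation complex, and BRD2 (0.54 ± 0.09) rose and 0 fell, and 0 of the 22 were called under median scaling. The share that rose, 13.6%, was near the 12.0% of all genes. HEXIM1, which inhibits P-TEFb, was near background (6.84 and 6.77 against 6.91 and 6.92), and its late difference of 0.11 ± 0.11 did not pass (adjusted p = 0.528).

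Growth genes were lower at both late times. The ribosome biogenesis list, which holds nucleolar proteins and RNA polymerase I factors, had 31 of 50 genes falling and 1 rising, with late medians of -0.51 (12 h) and -0.41 (24 h). NOP16 read 9.82 and 9.75 in DMSO and 8.74 and 8.46 with BAY 1238097 (-1.18 ± 0.09, adjusted p = 0.00441), GAR1, a core protein of H/ACA guide RNPs, changed by -1.01 ± 0.09, and NPM3 by -1.04 ± 0.20. In 47 of the 50 genes both late differences were below 0, beside 4016 of the 10499 genes tested. MYC and MAX bind the E-box CACGTG, which was found in 14 of 42 promoters of this list (33.3%), in 13 of 63 of the shared lower genes (20.6%), in 14.2% of genes that fell, in 10.4% of tested genes and in 7.43% of all promoters. NME1 (chr17:51153309-51153608, plus strand, GRCh38.p14), a nucleoside diphosphate kinase, is shown since it fell strongly and holds an E-box 34 bases after its start, in capitals.
NME1: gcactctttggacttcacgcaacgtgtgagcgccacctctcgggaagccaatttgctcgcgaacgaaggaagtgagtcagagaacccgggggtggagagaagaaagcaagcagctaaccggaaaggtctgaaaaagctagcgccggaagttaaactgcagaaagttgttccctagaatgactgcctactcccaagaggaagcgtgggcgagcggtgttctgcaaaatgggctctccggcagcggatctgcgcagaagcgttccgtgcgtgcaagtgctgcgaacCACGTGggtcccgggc
NME1 read 13.22 and 13.02 in DMSO and 12.02 and 11.95 with BAY 1238097, a fall of 1.13 ± 0.17 on the log2 scale (adjusted p = 0.011).

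Enzymes of nucleotide synthesis and one-carbon metabolism had 13 of 27 genes falling and 0 rising. The mitochondrial formate producer MTHFD1L had the largest fall, from 9.42 and 9.24 to 7.89 and 7.79 (-1.49 ± 0.26). RRM2, the ribonucleotide reductase subunit, did not pass (0.54 at 12 h and 0.07 at 24 h). For DUT, which degrades dUTP, the probe used gave -0.90 ± 0.17, but another probe of the gene had the opposite sign. Elsewhere probes of a gene could share a sign and differ in size. Late differences ran from -1.32 to -0.08 over the probes of PYCR1 and from -1.13 to -0.12 for RFC3. They ran from -1.02 to -0.23 for IARS1, -0.95 to -0.23 for UNG and -1.03 to -0.34 for UHRF1, but from -1.18 to -1.13 for NOP16. In the polyamine and arginine methylation list 6 of 12 genes fell, with the methyltransferases PRMT1 (-0.97 ± 0.12), CARM1 (-0.82 ± 0.14) and PRMT5 (-0.82 ± 0.10) first.

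Genes that supply mitochondrial proteins were lower. Of 21 genes of mitochondrial import and chaperones, 13 fell and 0 rose. Both late differences were below 0 in all 21, beside 4016 of the 10499 genes tested. The import pore gene TOMM40 read 11.63 and 11.31 in DMSO and 10.74 and 10.33 with BAY 1238097 (-0.93 ± 0.11), and the matrix protease subunit CLPP changed by -0.99 ± 0.19. Of 32 mitochondrial ribosomal protein genes 15 fell and 0 rose, and of 33 oxidative phosphorylation genes 6 fell and 0 rose. Of 64 cytosolic ribosomal protein genes 4 fell (6.25%, beside 11.5% of all genes) and 1 rose (1.56%, beside 12.0%), with medians of 0.03 and 0.01. RPL29 (-1.81 ± 0.21) and RPS7 (-1.34 ± 0.16) fell by the most among the listed genes. RPL36A, which the list does not hold, fell by 1.53 ± 0.13 on the log2 scale, and ribosomal protein probes may also read processed copies, which was not tested. Of 18 aminoacyl-tRNA synthetase genes 6 fell and 0 rose, led by the isoleucyl enzyme IARS1 (-1.02 ± 0.19). Proteasome genes had 8 of 29 falling and 0 rising, splicing factors 10 of 33 falling and 3 rising, and nuclear pore and transport genes 10 of 32 falling and 0 rising. Under median scaling 24 mitochondrial ribosomal, 14 oxidative phosphorylation, 15 proteasome, 15 splicing and 19 nuclear pore genes fell and 0 rose. Without a filter on dim probes 9 mitochondrial ribosomal and 2 oxidative phosphorylation genes fell.

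Many interferon genes were lower. In the interferon response list 27 of 42 genes fell and 1 rose, with late medians of -0.51 (12 h) and -0.64 (24 h). The RNA sensor OAS2 read 10.37 and 10.82 in DMSO and 8.57 and 9.23 with BAY 1238097 (-1.70 ± 0.32, adjusted p = 0.0178), MX1, an antiviral GTPase, changed by -1.33 ± 0.20 and IFI44L by -1.50 ± 0.25. From 12 to 24 h, OAS2 was 0.45 higher in DMSO and 0.66 higher with BAY 1238097, and MX1 0.57 and 0.52 higher, single steps that have no replicate. The 1 rising member, IFIT2, an inhibitor of viral translation, went the other way, from 7.58 and 7.75 to 8.71 and 9.27 (1.33 ± 0.12).

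Of 16 MHC class II presentation genes 11 fell and 0 rose, with medians of -0.62 and -0.63. CIITA, the master activator of this locus, read 7.38 and 7.24 in DMSO and 6.60 and 6.63 with BAY 1238097, where neither treated array was above background, so it was at least 1.43-fold lower (adjusted p = 0.0158). HLA-DMB, which loads peptide, changed by -1.43 ± 0.25 and HLA-DRB1 by -1.12 ± 0.16; HLA probes may read related genes or alleles. MHC class I genes were split, with 4 of 18 falling, among them the proteasome activator PSME2 (-1.05 ± 0.11), and 3 rising, among them HLA-E (0.73 ± 0.11).

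B-cell identity genes were lower in part. The B-cell receptor signalling list had 9 of 29 genes falling, including FCRL2 (-1.42 ± 0.19), an inhibitory Fc receptor-like protein, and the kinase BTK (-0.97 ± 0.17), and 3 rising. In the germinal centre list 7 of 22 fell, with VPREB3 and the confinement receptor P2RY8 (-1.20 ± 0.14) first, and 2 rose, among them IRF8 (0.76 ± 0.15). In the plasma cell and secretory list 10 of 20 fell, with TNFRSF17, MZB1 and the folding enzyme FKBP11 (-1.48 ± 0.18) first, and 2 rose, among them the transcription factor IRF4 (0.65 ± 0.14). Under median scaling 0 genes of the receptor and plasma cell lists rose. CD79A, the signalling chain of the receptor, read 10.90 and 10.79 against 10.15 and 9.95 (-0.79 ± 0.13, adjusted p = 0.0125). Late differences ran from -0.79 to -0.19 over the probes of CD79A and from -1.42 to -0.50 over those of FCRL2. CD79B was at -1.24 at 4 h and at -0.38 and -0.08 at 12 and 24 h, and its late difference did not pass (adjusted p = 0.259), while it passed under median scaling (0.0309).

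Signalling lists were mixed, and their counts stand beside 12.0% of all genes rising and 11.5% falling. NF-kappaB genes had 5 of 27 rising and 2 falling, JAK and STAT signalling 5 of 21 rising, with the kinase PIM1 at 0.97 ± 0.10, and 2 falling, with the cytokine receptor IL7R from 8.65 and 8.90 to 7.16 and 7.37 (-1.51 ± 0.10). Chemokines and their receptors had 4 of 18 rising and 5 falling. The list ran from ACKR4 to CCL5, and the interferon-induced chemokine CXCL9 fell by 1.55 ± 0.21 on the log2 scale. Of 14 Toll-like receptor genes 5 fell and 1 rose. Of 18 immediate early genes 5 rose and 0 fell, with JUN at 1.20 ± 0.13 (1 of 2 vehicle arrays above background) and EGR1 at 1.09 ± 0.10. ATF3 rose by 0.75 ± 0.17 with differences of 2.22 and 1.57 at 4 and 8 h, and did not pass without a filter on dim probes (adjusted p = 0.0596).

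Of 28 genes of growth arrest and quiescence 14 rose and 1 fell, with medians of 0.41 and 0.45. TXNIP, which binds thioredoxin and limits glucose uptake, read 9.90 and 10.24 in DMSO and 11.17 and 11.41 with BAY 1238097 (1.22 ± 0.10, adjusted p = 0.00461). KLF6, a zinc finger factor, rose by 1.12 ± 0.10. Among G1 regulators the CDK inhibitor genes CDKN2D (0.87 ± 0.09) and CDKN1B (0.73 ± 0.09) rose, and cyclin D2, CCND2, read 11.32 and 10.81 against 9.79 and 9.82 (-1.26 ± 0.31, adjusted p = 0.0328, and 0.0841 without a filter on dim probes). In the p53 target list 4 of 17 rose, including TP53INP1 (1.04 ± 0.17) and the BH3-only gene PMAIP1 (0.88 ± 0.10), and 2 fell. MCL1, an anti-apoptotic BCL2 relative, rose by 1.01 ± 0.15, while its other probe gave a late difference of 0.36. Of 30 lysosome and autophagy genes 14 rose and 1 fell, with the cargo receptor SQSTM1 at 1.08 ± 0.11, the sialidase NEU1 at 1.01 ± 0.13 and the cholesterol exporter NPC1 at 0.86 ± 0.09, and 8 rose under median scaling.

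**Figure D3:**
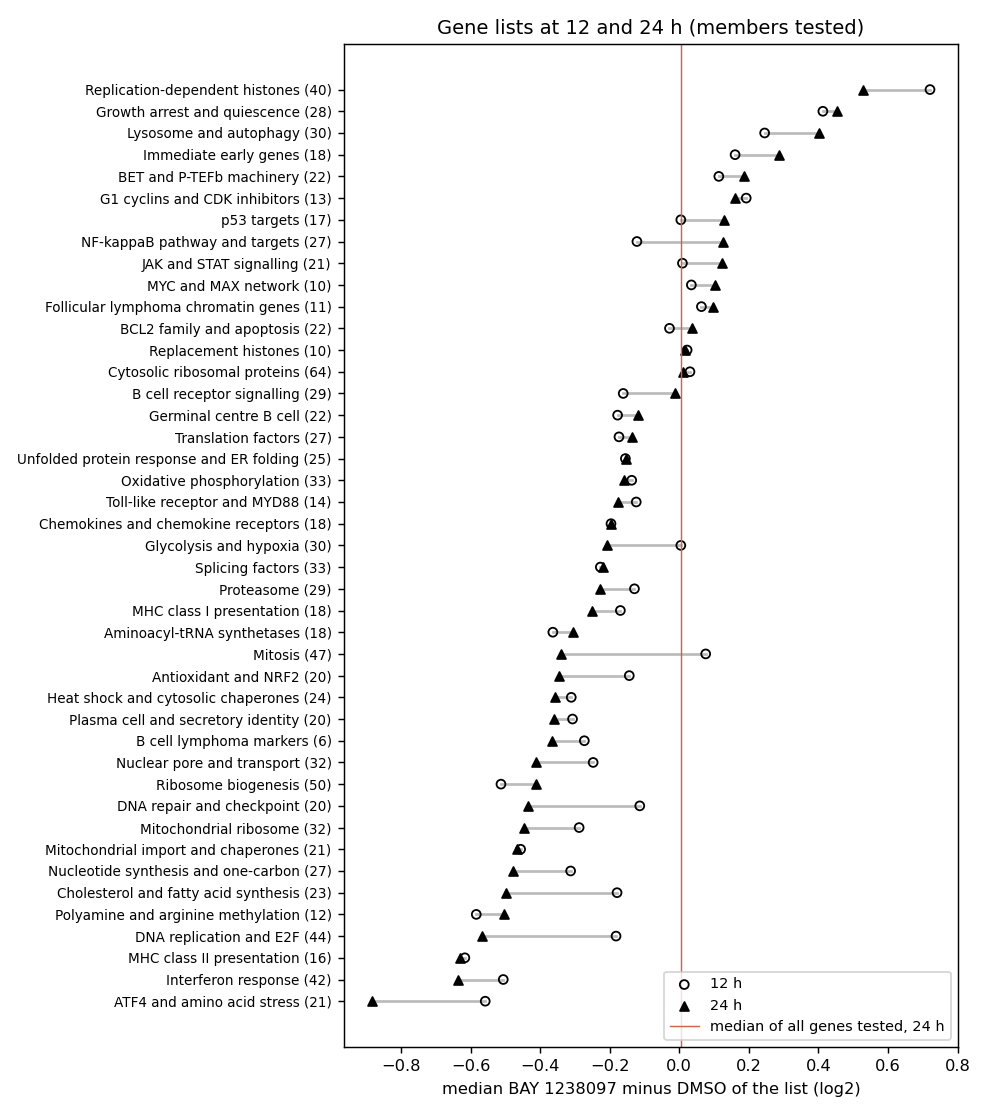
Median BAY 1238097 minus DMSO log2 difference of each gene list at 12 h (open circles) and 24 h (filled triangles), with the number of members tested in brackets and an orange line at the 24 h median of all 10499 genes. Replication-dependent histones are farthest to the right and, on the brightest probe per gene, the ATF4 list is farthest to the left at 24 h. The replication, mitosis, repair, cholesterol and ATF4 lists sit lower at 24 h than at 12 h.

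At 24 h and not at 12 h, 20 genes passed the size thresholds of at least 1 and under 0.5, 5 higher (0.0476%) and 15 lower (0.143%). The mirrored 12 h class had 4 higher (0.0381%) and 4 lower (0.0381%). Each of these genes has 1 array per treatment and time, so the step from 12 to 24 h has no replicate and was not tested. The 15 lower genes included genes of DNA replication and its checkpoint (CDT1, GINS2, CDC45, MCM5, MCM10 and CHEK1), sterol and lipid synthesis (EBP, ACAT2 and SCD), of which MCM10 and CHEK1 were named after their values were seen. At smaller thresholds of 1.5-fold and 0.25 the shared response held 321 genes higher (3.06%) and 428 lower (4.08%), the 24 h class 53 higher (0.505%) and 70 lower (0.667%), and the 12 h class 26 higher (0.248%) and 21 lower (0.2%). Under median scaling the 24 h class held 1 gene higher and 44 lower.

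S100A4, a calcium-binding protein of cell motility, had the largest 24 h difference of the class. It read 9.53 and 10.34 in DMSO at 12 and 24 h and 9.05 and 8.53 with BAY 1238097, so the arms moved apart by 0.81 upward in DMSO and 0.52 downward under treatment. PHGDH, the first enzyme of serine synthesis, read 11.17 and 11.69 against 10.82 and 10.20, and its difference was -0.23, -0.23, -0.35 and -1.49 at 4, 8, 12 and 24 h. CDT1, which loads the MCM helicase at origins, read 8.96 and 9.16 against 8.52 and 7.77. GINS2, a subunit of the replicative helicase, read 10.86 and 10.77 against 10.59 and 9.48, and CDC45, its partner, 10.69 and 10.69 against 10.21 and 9.56. In these 3 replication genes DMSO moved by 0.21 or less between the times, and the treated value was lower by 0.76, 1.11 and 0.64 log2 units at 24 h.

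ISG15, a ubiquitin-like interferon product, and SCD, the stearoyl desaturase, differed in another way. ISG15 read 8.98 and 9.82 in DMSO and 8.48 and 8.53 with BAY 1238097, and SCD 11.55 and 12.20 against 11.09 and 11.17, so in both the vehicle arm moved and the treated arm stayed within 0.08. Among the 15 lower genes the treated arm made the larger step in 12, with a median step of -0.64 under BAY 1238097 and 0.15 in DMSO. The rule for this class already requires the arms to move apart, and the share over all genes was not counted. Of the 15, 11 were under 0.5 in size at both 4 and 8 h, a share not counted over all genes, and 10 passed the late test. That test uses the same 24 h differences that chose these genes, so passing it under any setting is no separate support. The 5 that did not pass were SCD (adjusted p = 0.055), GINS2 (0.0573), CHEK1 (0.0621), NDC1 (0.0839) and EBP (0.0865). GINS2 (0.0298) and SCD (0.0448) passed under median scaling, and also with normexp, with the filter on all 4 late arrays, with a variance trend and on the late arrays alone.

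Among the 5 higher genes the treated arm made the larger step in all 5, with medians of 0.41 under BAY 1238097 and -0.17 in DMSO. Here too the rule requires the arms to move apart. PSEN2, a catalytic subunit of gamma-secretase, read 9.31 and 9.25 in DMSO and 9.80 and 10.52 with BAY 1238097. MAP3K5, the stress kinase ASK1, read 9.51 and 9.34 against 9.86 and 10.54, and CHKA, choline kinase, 8.83 and 8.55 against 9.31 and 9.68. MAP3K8 and KIAA0319L had 24 h differences of 1.01 and 1.02. Of the 5, 4 passed the late test, which uses the 24 h differences that chose the class, and MAP3K5 did not (adjusted p = 0.0532). MAP3K5 did pass with normexp (0.0375), with the filter on all 4 late arrays, with a variance trend and on the late arrays alone. The mirrored 12 h class, named after its values were seen, included ADM, a hypoxia-responsive peptide hormone, which was 1.16 higher at 12 h and differed by -0.03 at 24 h, as DMSO went from 9.02 to 10.34 and BAY 1238097 from 10.18 to 10.31 (late adjusted p = 0.157), and the chemokine CXCL10, where DMSO went from 9.85 to 8.65 and BAY 1238097 from 8.45 to 8.18.

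**Figure D4:**
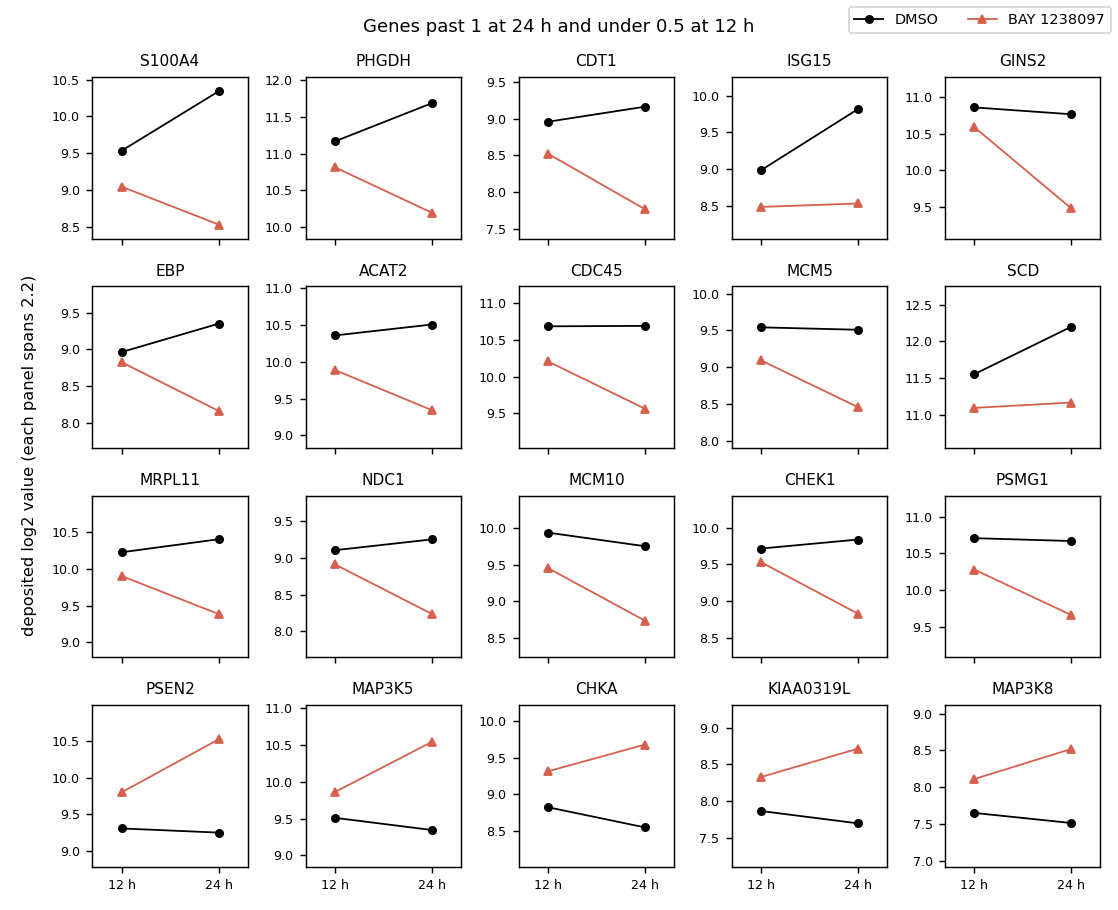
Deposited log2 values at 12 and 24 h of the 15 lower and 5 higher genes of the 24 h class, black circles for DMSO and red triangles for BAY 1238097, 1 array per point, each panel spanning 2.2 log2 units. In GINS2, CDC45 and MCM5 the treated line is lower at 24 h while the vehicle line is nearly flat, and in ISG15 and SCD the vehicle line is higher at 24 h while the treated line is nearly flat.

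Replication genes were lower at 24 h. Of 44 genes of DNA replication and E2F targets, 15 fell in the late test and 0 rose, with 25 falling under median scaling and 9 without a filter on dim probes. Their median differences at 4, 8, 12 and 24 h were 0.14, -0.06, -0.18 and -0.57. The difference was lower at 24 h than at 12 h in 43 of 44 genes, beside 49.0% of all genes. The median step was -0.45 in the treated arm and 0.00 in DMSO. POLE2, a subunit of the leading-strand polymerase, read 9.24 and 9.35 in DMSO and 8.54 and 7.75 with BAY 1238097 (-1.15 ± 0.21, adjusted p = 0.0157). RFC3, of the clamp loader, changed by -1.13 ± 0.19, and UHRF1, which maintains DNA methylation, by -1.03 ± 0.21. All 6 helicase genes MCM2 to MCM7 fell, by differences of -0.53 to -0.97, with MCM4 at -0.60 at 12 h and -1.33 at 24 h. E2F sites of the form TTTNGCGC were found in 15 of 38 promoters of the list (39.5%), in 3.32% of tested genes, in 1.83% of all promoters and in 1 of 13 promoters of the lower 24 h class. The promoters of POLE2 (chr14:49688165-49688464, minus strand) and CDT1 (chr16:88803539-88803838, plus strand), both RefSeq, GRCh38.p14, are shown as a member past -1 at 24 h with 2 sites and as the class member with 1, capitals marking the sites on either strand.
POLE2: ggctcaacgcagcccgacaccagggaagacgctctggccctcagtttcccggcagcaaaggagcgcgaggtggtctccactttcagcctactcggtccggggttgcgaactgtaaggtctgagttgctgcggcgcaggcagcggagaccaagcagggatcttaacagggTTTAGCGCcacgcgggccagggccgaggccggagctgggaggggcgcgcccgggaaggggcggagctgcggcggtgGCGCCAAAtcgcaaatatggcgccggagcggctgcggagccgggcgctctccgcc
CDT1: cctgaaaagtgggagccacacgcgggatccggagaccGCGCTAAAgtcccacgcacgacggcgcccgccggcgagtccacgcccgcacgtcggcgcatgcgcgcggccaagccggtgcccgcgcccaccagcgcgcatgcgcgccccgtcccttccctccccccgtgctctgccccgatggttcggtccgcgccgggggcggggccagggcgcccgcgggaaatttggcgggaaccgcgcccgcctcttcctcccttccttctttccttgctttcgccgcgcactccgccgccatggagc

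Of 47 mitosis genes, 6 fell and 0 rose in the late test, a share near the 11.5% of all genes. Under median scaling 10 fell, and without a filter on dim probes 2. The median differences at 8, 12 and 24 h were 0.24, 0.08 and -0.34. The difference was lower at 24 h than at 12 h in 46 of 47 genes, beside 49.0% of all genes. The median step was -0.14 in the treated arm and 0.25 in DMSO. CCNA2, cyclin A2, read 10.46 and 10.76 in DMSO and 10.16 and 9.93 with BAY 1238097 (-0.57 ± 0.13), and CDC25A, a phosphatase that activates CDKs, 9.43 and 9.25 against 8.73 and 8.05 (-0.95 ± 0.19). The 12 h median was -0.11 under median scaling, where the 24 h median was -0.54. In the DNA repair and checkpoint list 4 of 20 fell, led by the uracil glycosylase UNG (-0.95 ± 0.17), and 1 rose, with medians of -0.11 and -0.44.

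**Figure D5:**
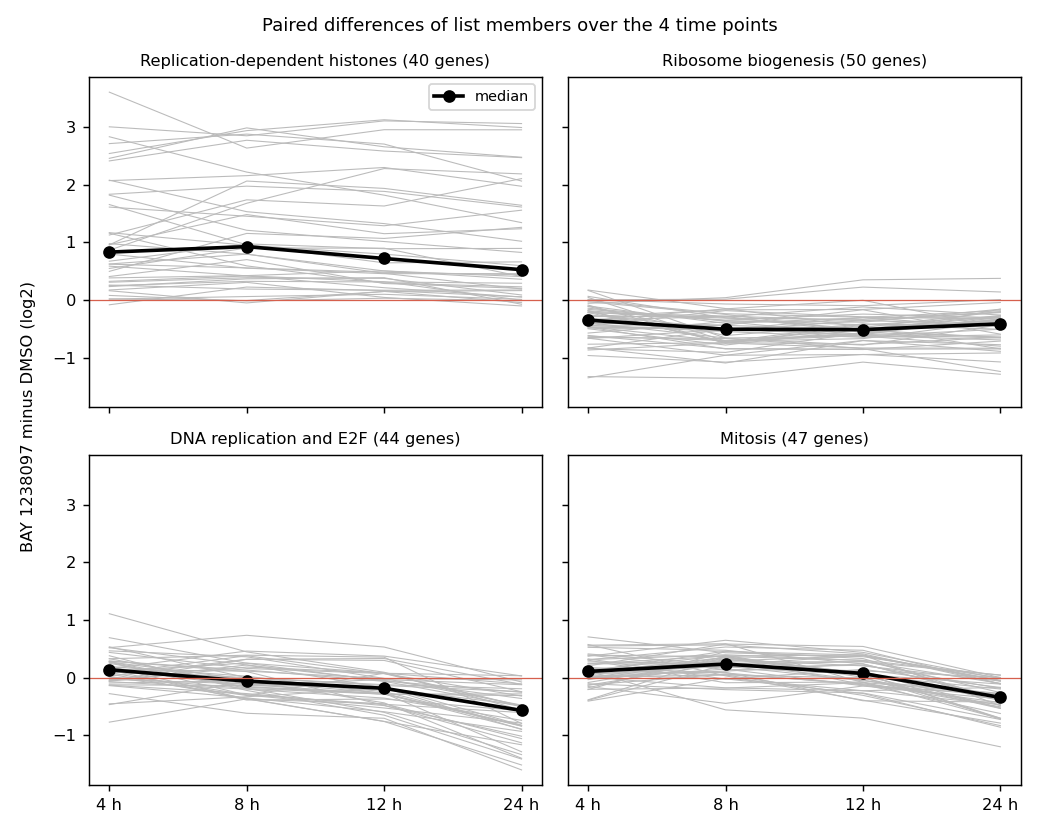
BAY 1238097 minus DMSO log2 differences at 4, 8, 12 and 24 h (equal spacing on the x axis), 1 grey line per gene and the list median in black, for 4 lists. The histone and ribosome biogenesis medians stay on 1 side of 0 from 4 h on, and the replication and mitosis medians reach -0.57 and -0.34 at 24 h.

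In the ATF4 and amino acid stress list, 12 of 21 genes fell and 1 rose, with late medians of -0.56 (12 h) and -0.88 (24 h). With the mean of probes 11 fell and 1 rose, and the medians were -0.35 and -0.53. The MHC class II list then had a lower 24 h median (-0.62), as had the interferon list (-0.59). PYCR1, which makes proline, read 8.80 and 8.67 in DMSO and 7.55 and 7.27 with BAY 1238097 (-1.32 ± 0.23), XPOT, the tRNA exporter, changed by -1.14 ± 0.11 and the arginine transporter SLC7A1 by -1.11 ± 0.17. The rising member was the amino acid transporter SLC38A2 (0.48 ± 0.10), and 0 rose under median scaling. ATF4 itself read 11.93 and 12.24 against 12.03 and 12.08 and did not pass (adjusted p = 0.859). In cholesterol and fatty acid synthesis 4 of 23 fell, with ELOVL6, a fatty acid elongase, at -1.11 ± 0.15, and 1, LSS, rose (0.68 ± 0.09) but not under median scaling. The medians were -0.18 and -0.50, and the median step was 0.19 in DMSO and -0.05 in the treated arm. Glycolysis and hypoxia genes had 4 of 30 falling and 2 rising, a share of falls near the 11.5% of all genes, with medians of 0.00 and -0.21 and a median DMSO step of 0.31. Heat shock and cytosolic chaperones had 8 of 24 falling and 0 rising, led by FKBP4 (-1.17 ± 0.14), and antioxidant genes 8 of 20 falling and 3 rising, led by TXNRD1 (-0.75 ± 0.13). Of 25 unfolded protein response genes 2 fell and 0 rose, a share below the 11.5% of all genes, with 10 falling under median scaling. Of 11 chromatin genes mutated in follicular lymphoma 1 rose and 1 fell (9.09% each), beside 12.0% and 11.5% of all genes.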

How the data were processed

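Biotin-labelled cRNA of DOHH2 cells was hybridised to Illumina bead arrays, per the labels' protocols. The authors deposited linear intensity values, not background-subtracted as their values show, and a table of log2 values, which quantile normalization of the log2 intensity values matched within 0.00256. Of 10 unnamed columns, 0 held a value. Detection p-values were not used here. A probe was above background where fewer than 5% of 455 olfactory receptor probes were at least as bright. Probes above it on 2 of the 4 late arrays were kept, and each gene took its brightest probe (10499 genes, 2745 with several). Names came from the platform annotation (30113 of 47231 probes with 1 symbol, 8 with several, 17110 with none), and 30074 probes matched RefSeq GRCh38.p14.

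limma 3.58.1 (R 4.3.3) was fitted to all 8 arrays with time as a factor and separate treatment effects for 4 and 8 h and for 12 and 24 h, with 2 residual degrees of freedom per gene and Benjamini-Hochberg adjustment. Arrays of 1 time were paired, since their deviations from the mean of all arrays of their treatment correlated (r = 0.589, 0.436, 0.676 and 0.482 at 4, 8, 12 and 24 h). These correlations include any change from early to late times that both treatments share. On simulated data for the 10499 genes, the late test recovered 70% of log2 changes of 0.5 and 100% of changes of 1, with 3.95% false calls. The late minus early test recovered 20% and 93%, with 2.59% false calls. The simulation drew independent normal noise and held no early effect. It changed 100 genes per size, by the same amount at 12 and 24 h. The real arrays held effects at 4 and 8 h and many more called genes, so these percentages are not error rates of the calls here.

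The members and the 44 gene lists were chosen with earlier results of these data known. Named genes are the 12 largest shared rises and falls, up to 10 per direction of the 24 h class, up to 3 called members per list with the largest late difference, and MYC, HEXIM1, TXNIP and the B-cell markers. Other genes named were chosen after their values were seen. Alternatives tried were median scaling, normexp background correction, 3 other filters, the mean of probes, a variance trend, smaller thresholds, fits without each pair, without pairing, and on the late arrays alone. Figures were drawn with matplotlib 3.10.9.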

Additional observations from a re-analysis of the deposited data

How the results depend on the processing

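Of the 149 named genes called, 33 lost the call under at least 1 of the 8 settings that keep every pair and the time factor, and no named gene changed direction under these. Of the same 149, 129 lost the call without the 24 h pair, 83 without the 12 h pair and 45 without the time block. Leaving out 1 pair moved the late calls between 39 and 3463 (higher 26 to 1739, lower 13 to 1724), the lowest without the 24 h pair, where 1 late pair is left. The late minus early calls ranged from 0 to 12. Without the pairing by time, the fit with no replicate block called 1094 genes, 552 higher and 542 lower. The late arrays alone gave 3463. Median scaling gave 590 higher and 2029 lower calls, 211 shared genes with 177 lower, and 45 genes in the 24 h class, 1 higher and 44 lower. Background correction with normexp gave 35 in the 24 h class, 8 higher and 27 lower, and 7 lower in the 12 h class. Thresholds of 1.5-fold and 0.25 gave 749 shared genes, 321 higher and 428 lower, 123 in the 24 h class, 53 higher and 70 lower, and 26 higher and 21 lower in the 12 h class. The cause was not tested, apart from the fewer arrays or lower thresholds that define a setting. Values without background correction compress differences of dim genes. Median scaling also moved list counts: 10 genes fell in each of the DNA repair, cholesterol and antioxidant lists and 0 rose, 6 fell and 4 rose in the NF-kappaB list, 6 fell and 1 rose in glycolysis, 3 fell and 2 rose in JAK and STAT signalling, and 5 fell and 1 rose in MHC class I presentation. Without a filter on dim probes the falling genes were 1 in glycolysis, 2 in DNA repair, 3 in Toll-like receptor genes and 5 in heat shock. With normexp they were 9 in cholesterol, 7 in DNA repair and 5 in NF-kappaB, and with the mean of probes 8 among cytosolic ribosomal proteins and 5 among antioxidant genes.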
